A study of Mus musculus with 8 samples.

Results

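Mouse bone marrow stromal cells that flew in microgravity were set against the same kind of cells that flew on a 1 g centrifuge inside the KUBIK incubator. The arrays were chosen by their titles, and they are 4 of the 8 arrays of the study. The cells came from C57BL/6 mice of 6 to 8 weeks and were seeded on Skelite, a calcium phosphate scaffold. Of the 4 arrays, 1 held cells in growth medium in microgravity, 1 cells in osteoinductive medium in microgravity, 1 cells in growth medium on the centrifuge and 1 cells in osteoinductive medium on the centrifuge. All 4 were in incubation units in automated hardware, and the labels do not say how many mice were pooled or how long the cultures flew. The other 4 arrays, which did not fly, held both media in incubation units operated by hand on the ground and in culture dishes; here they supply the spread between like arrays and a background level. Each medium thus has 1 array on each side. The labels do not tell separate cultures or mice apart, so a p-value here reflects how far these arrays scatter, possibly for technical reasons alone, and precision is limited by how few they are. Differences are log2 values, microgravity minus centrifuge, and 13205 genes were tested.

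Bone marrow stromal cells are the adherent marrow cells from which bone, cartilage or fat can develop and which support blood formation. Cells of bone sense load through integrins, the actin cytoskeleton, the primary cilium and mechanosensitive ion channels, and unloading of the skeleton in flight is known for loss of bone. An onboard centrifuge restores weight during flight in like hardware, so the comparison asks which transcripts differ with weight itself.

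The labels of the centrifuge arrays conflict: by title and description they flew on the centrifuge, but a gravity label reads microgravity. One description of the osteoinductive centrifuge array also names growth medium. The labels do not give the makeup of the osteoinductive medium, but such media usually hold a glucocorticoid, so transcripts that glucocorticoids raise were used to look at the second conflict. Of the 20 tested members of that list, 17 were higher in the osteoinductive than in the growth centrifuge array, with a median difference of 0.75, and the corresponding medians were 0.81 in microgravity, 0.72 in the ground units and 0.89 in the dishes. Fkbp5, a chaperone partner of the glucocorticoid receptor, was higher by 2.61 in the osteoinductive centrifuge array. The medians of the 4 pairs of media thus lay close to each other. No transcript was used to check the gravity label.

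The stromal label was borne out by its markers. Of 16 measured stromal markers 15 lay above an intensity of 141 on both microgravity arrays, and 13 and 14 did so on the centrifuge arrays in growth and osteoinductive medium. Col1a1, the main collagen of bone, had intensities of 6043 and 7008 in microgravity and 6290 and 6865 on the centrifuge, growth medium first. The summed stromal intensity was 26347 and 32960 in microgravity and 30199 and 31820 on the centrifuge. Markers of other tissues were present too, so such counts alone do not name the cell type. Of 16 neuronal markers 16 and 15 lay above 141 in microgravity and 16 and 14 on the centrifuge. Of 13 markers of macrophages and other blood cells 6 and 7 did so in microgravity and 7 and 7 on the centrifuge. The 16 neuronal markers summed to 19061 and 14029 in microgravity and to 17449 and 12746 on the centrifuge, against 3463 to 4517 on the arrays that did not fly. The 16 skeletal muscle markers summed to 9882 and 8349 in microgravity and 9254 and 7751 on the centrifuge, against 3243 to 3529. Both sides of the comparison therefore carry these signals at similar levels. The lung epithelial markers did not: their 20 members summed to 5914 and 21562 in microgravity and to 4922 and 4776 on the centrifuge, against 3020 to 3368 without flight. In bulk samples more cells of a type and more RNA per cell cannot be told apart.

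Over both media together, no gene passed an adjusted p of 0.05 in limma, with condition and medium as terms on all 8 arrays. The smallest adjusted p was 0.187, and 1507 genes (11.4%) had an unadjusted p under 0.05. The call rests on how the spread is estimated: 49 genes passed with the 4 flight arrays alone, 47 without the growth microgravity array, 25 without the dish array of either medium and 3 without the osteoinductive microgravity array. As a description, 203 genes (1.54% of those tested) were higher in microgravity by at least 0.25 in both media and 361 (2.73%) were lower by as much. The same rule found 39 genes (0.295%) higher and 132 (1%) lower between ground units and dishes. After cyclic loess normalization it found 244 higher and 172 lower in microgravity. Across genes the differences in growth and osteoinductive medium had a Pearson correlation of 0.08, and 6782 of the 13205 genes had opposite signs in the media. The SD of the differences across genes was 0.28 in growth and 0.22 in osteoinductive medium, against 0.15 and 0.15 between ground units and dishes.

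Within each medium, 1 microgravity array was compared with 1 centrifuge array. Limma gave these pairs a test by taking the spread from the ground unit and dish arrays of each medium, so the lone flight arrays are assumed to vary like those. On that basis 1143 genes (8.66%) passed in growth medium, 139 higher (1.05%) and 1004 lower (7.6%) in microgravity. In osteoinductive medium 78 (0.591%) passed, 75 higher (0.568%) and 3 lower (0.0227%). In growth medium 10 genes (0.0757%) were at least 2-fold higher and 3 (0.0227%) at least 2-fold lower, and in osteoinductive medium 46 (0.348%) were higher and 1 (0.00757%) lower by as much. The difference between the media, tested directly as an interaction, passed for 33 genes (0.25%), 31 (0.235%) with the higher difference in osteoinductive medium and 2 (0.0151%) with the higher one in growth medium.

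**Figure D1:**
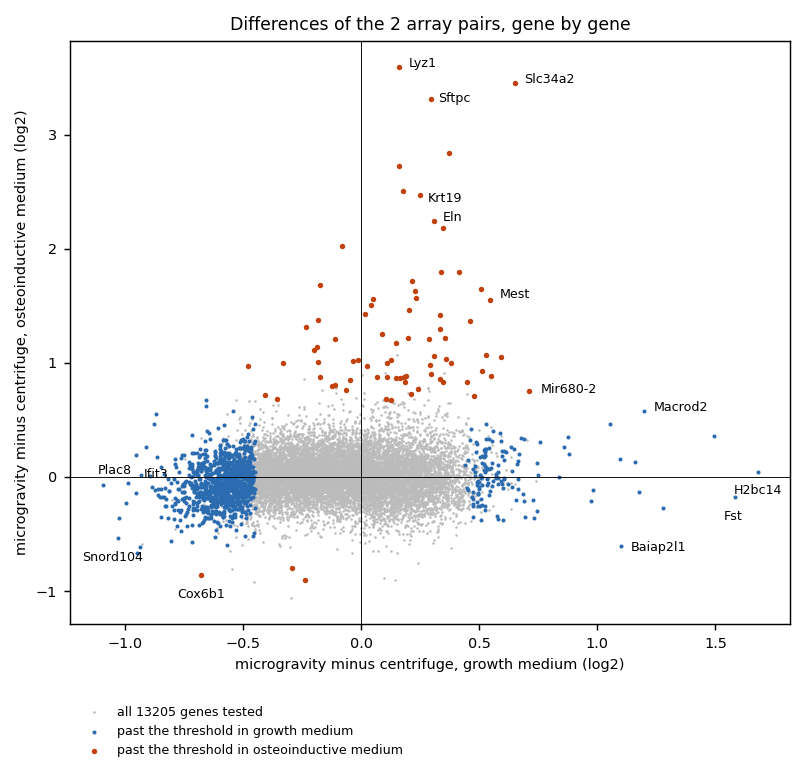
Each point is 1 of 13205 genes, with its difference between microgravity and centrifuge (log2) in growth medium on the horizontal axis and that of the osteoinductive pair on the vertical axis; blue and orange points passed limma's adjusted p of 0.05 in growth or osteoinductive medium. The osteoinductive pair has a tail of high values that reaches 3.59 for Lyz1, while the growth pair is broad on the negative side, with 1004 genes lower.

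The growth medium difference depended on how bright a gene was. When the tested genes were split by mean level into 5 groups of 2641, the median difference in growth medium went from 0.12 in the dimmest group through 0.05, -0.12 and -0.25 to -0.33 in the brightest. In osteoinductive medium the 5 medians lay between -0.02 and 0.02. The growth microgravity array had the narrower range of values, with a 95th percentile of intensity of 1646 against 1933 on its centrifuge partner, while the osteoinductive pair had 1730 and 1786. Quantile normalization reduced the growth medians of the dimmest and brightest groups to 0.08 and -0.12. It changed the calls in growth medium to 223 higher and 277 lower, and cyclic loess normalization changed them to 24 higher and 9 lower. In osteoinductive medium the calls were 101 higher and 16 lower after quantile and 90 higher and 4 lower after loess. All 78 osteoinductive calls, but 33 of the 1143 growth calls, were also called after loess. Whether brightness stands here for biology or for the array was not tested.

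**Figure D2:**
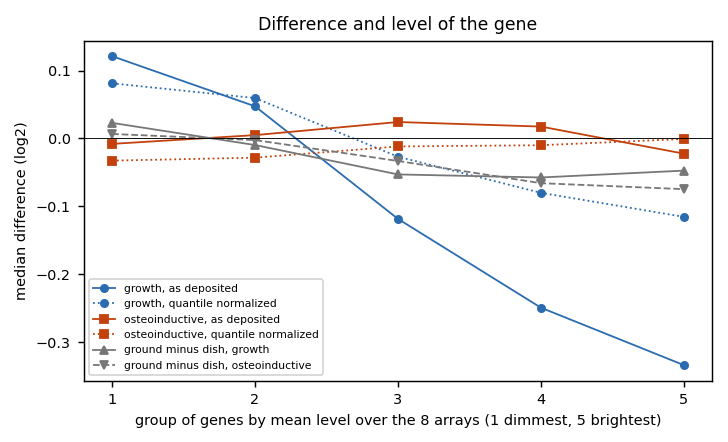
Median difference (log2) of 5 groups of genes by mean level, from dimmest to brightest, for microgravity minus centrifuge in growth (blue) and osteoinductive medium (orange), as deposited (solid) and after quantile normalization (dotted), and for ground units minus dishes (grey). The growth line falls from 0.12 to -0.33 as deposited and from 0.08 to -0.12 after quantile normalization, and the osteoinductive line stays near 0.

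Few genes passed in both media. There were 8, all with the same direction in both: Slc34a2, Mest, Nrsn1, Krt8, Bmp5, Mir680-1 and Mir680-2 were higher in microgravity and Cox6b1 was lower. These calls depended on the processing: of the 8, 7 passed in both media after quantile normalization, 4 with the filter at the 60th percentile, which left the other 4 untested, 1 after cyclic loess (Mir680-2) and 0 without a filter on dim genes. After loess the growth medium adjusted p of the 7 others lay between 0.0775 and 0.1161.

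Bmp5, a secreted bone morphogenetic protein and so a ligand of the pathway that drives bone formation, had intensities of 214 and 244 in microgravity (growth, then osteoinductive medium), 154 and 149 on the centrifuge and 112 to 117 on the 4 arrays that did not fly. Both microgravity values lay above both centrifuge values, with differences of 0.48 and 0.71 (SE 0.12; limma adjusted p = 0.0447 and 0.0367). After loess the limma adjusted p was 0.1161 in growth medium, and without a filter on dim genes neither passed (0.0964 and 0.0629). Without the osteoinductive microgravity array the mean of Bmp5 would lie under the filter. Mest, an imprinted gene expressed from the paternal copy in embryonic mesoderm, stood at 1068 and 1535 in microgravity and 731 and 525.5 on the centrifuge, against 57.8 to 75.1 without flight. Its differences were 0.55 and 1.55 (SE 0.13; adjusted p = 0.0408 and 0.000397). For Mest the centrifuge arrays stood further above the arrays that did not fly than below the microgravity arrays, and the 3 sets of values did not overlap.

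Nrsn1, a membrane protein of neurons, had intensities of 357 and 314 in microgravity and 237 and 151 on the centrifuge, with differences of 0.59 and 1.05 (SE 0.13; limma adjusted p = 0.0383 and 0.0070). Without the osteoinductive microgravity array the mean of Nrsn1 would lie under the filter on dim genes. Krt8, a keratin of simple epithelia, had 409 and 586 against 287 and 309, and 280 to 325 without flight. In Krt8 the centrifuge arrays thus lay at the unflown level and both microgravity arrays above it, by 0.51 and 0.92 (SE 0.13; adjusted p = 0.0469 and 0.0147). Slc34a2, the sodium-phosphate cotransporter of alveolar type II cells, had 245 and 1777 against 156 and 163, with differences of 0.65 and 3.45 (SE 0.15; adjusted p = 0.0386 and 7.38e-06). Cox6b1, a subunit of cytochrome c oxidase, had 501 and 554 in microgravity, 802 and 1005 on the centrifuge and 650 to 741 without flight. Here the centrifuge arrays lay above the unflown range and the microgravity arrays below it, with differences of -0.68 and -0.86 (SE 0.12; adjusted p = 0.0369 and 0.0159).

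The remaining pair are microRNA genes. Mir680-2 had intensities of 633 and 1126 in microgravity, 387 and 667 on the centrifuge and 346 to 416 without flight (differences 0.71 and 0.76, SE 0.12; limma adjusted p = 0.0369 and 0.0286). Mir680-1 had 367 and 713 against 251 and 387, and 210 to 295.5 without flight (0.55 and 0.88, SE 0.14; adjusted p = 0.0472 and 0.0286). Within a medium both were higher in microgravity, but the osteoinductive centrifuge array exceeded the growth microgravity array for each. The third copy, Mir680-3, had 1283 and 1668 in microgravity and 1120 and 1638 on the centrifuge, differences of 0.20 and 0.03 that did not pass. All 3 copies give the same mature RNA in RefSeq (GRCm38.p6), from chr6:129691541-129691561 (+), chrX:144297790-144297810 (+) and chr12:35194849-35194869 (-). Over 40 bases from the start of the mature sequence, the hairpins of Mir680-1 and Mir680-2 shared 39 bases, and Mir680-3 shared 36 and 37 with them, so the array's split between the copies is uncertain. The mature RNA is shown with those of 3 further microRNA genes that the naming rule picked, to show which microRNAs stand behind the values. Capitals mark the seed, bases 2 to 8, by which a microRNA pairs with its targets, and no seed is shared between them.
miR-680: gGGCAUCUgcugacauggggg
let-7a-5p: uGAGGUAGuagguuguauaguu
miR-221-3p: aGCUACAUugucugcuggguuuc
miR-19b-3p: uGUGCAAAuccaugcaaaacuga

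Mir221, on chrX:19146307-19146329 (-), was higher in microgravity in growth medium, with intensities of 247 against 126 (difference 0.97, SE 0.16; limma adjusted p = 0.0369), and 167 against 193 in osteoinductive medium (-0.21; adjusted p = 0.694). The difference between media did not pass (adjusted p = 0.0951). Mirlet7a-1, on chr13:48538239-48538260 (-), had 147 and 159 in microgravity and 180 and 330 on the centrifuge; neither difference, -0.30 or -1.06 (SE 0.26), passed (adjusted p = 0.431 and 0.171). Mir19b-1, on chr14:115044358-115044380 (+), had 199 against 287 in growth and 186 against 117 in osteoinductive medium, and neither passed (adjusted p = 0.113 and 0.306). Which RNA these probe sets read, the mature one or a longer transcript, was not tested.

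Outside these 8 genes, the ranking by the smaller difference of the same sign named 16 more. Among the higher ones, Clic5, a chloride intracellular channel protein, had 172 and 329 in microgravity against 119 and 158 on the centrifuge, and the tetraspanin Tspan2 had 310 and 634 against 218 and 203. Without the osteoinductive microgravity array the mean of Clic5 would lie under the filter on dim genes. Lmo2, a transcriptional adaptor of blood and endothelial cells, had 428 and 380 against 296.5 and 276. Cops6, a subunit of the COP9 signalosome, had 1574 and 613 against 758 and 443.5, but 766 to 820 without flight, so the growth microgravity array was high and the osteoinductive centrifuge array low. Macrod2 stood at 3318 and 3593 against 1448 and 2406, but its 5 other probe sets differed only by 0.12 to 0.36 in growth medium, so the gene's own level is uncertain. Both microgravity values exceeded both centrifuge values for 9 of the 12 higher genes, all but Mir680-1, Mir680-2 and Cops6, and for 1272 genes (9.63%) of all those tested. The 12 were picked by their differences on these same arrays, so their count follows in part from the choice.

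Of those lower, Ly96, the partner of Toll-like receptor 4 in sensing bacterial lipid, had 177 and 184 against 337 and 277, and 275 to 401 without flight. Steap1, a metalloreductase of the plasma membrane, had 422 and 330 against 814 and 525. Tnfrsf12a, the receptor of the cytokine TWEAK, had 1479 and 1483 against 2191 and 2241, and Ssr4, a subunit of the translocon-associated complex, had 654 and 727 against 1075 and 1076. Uqcrh, a subunit of respiratory complex III, had 780 and 979 against 1126 and 1409. The others were Snora23, Snord104, Ifi207, Nr2c2ap, C1ra and Trappc2l, with differences between -0.55 and -1.03 in growth and between -0.52 and -0.81 in osteoinductive medium. For each of the 12 lower genes both microgravity values lay under both centrifuge values, which holds for 2159 genes (16.3%) of all those tested. These 12 too were picked by their differences on the same arrays. None of the 24 genes passed over both media together.

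**Figure D3:**
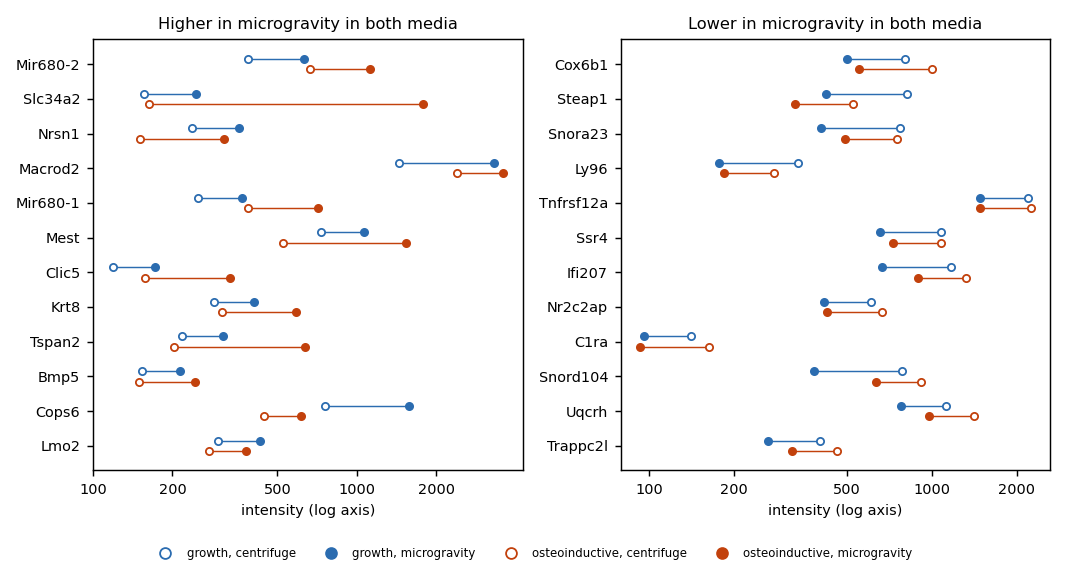
Intensity (log axis) of the 12 highest and 12 lowest genes by the smaller of the differences in growth and osteoinductive medium; filled points are microgravity, open points centrifuge, blue growth and orange osteoinductive medium. Every line runs to the right (left panel) or left (right panel) from open to filled point, since the genes were picked for that, and Slc34a2 has the longest, from 163 to 1777.

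In osteoinductive medium genes of lung epithelium rose in microgravity. Of 18 tested members of the lung list 12 rose and none fell, against 0.568% of all genes, with a median of 1.19 beside 0.00 for all genes. Muc1, Sec14l3 and Slc34a2 passed the filter on dim genes only through the osteoinductive microgravity array, a check chosen after seeing the data; 9 of the 15 others rose. Without a filter 11 of 24 rose, with a median of 1.02. In growth medium 1 of 18 rose, Slc34a2, against 1.05% of all genes, with a median of 0.20 beside -0.11. Sftpc, which encodes surfactant protein C, had an intensity of 7190 in the osteoinductive microgravity array. The other flight arrays had 1515 (microgravity, growth), 1233 (centrifuge, growth) and 724 (centrifuge, osteoinductive), and the arrays that did not fly 97.6 to 110. The difference of Sftpc was 3.31 in osteoinductive medium, or 9.93-fold (SE 0.13; limma adjusted p = 6.45e-06), and 0.30 in growth medium (adjusted p = 0.139). All 3 other flight arrays thus also lay above the unflown range for Sftpc.

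Lyz1, a lysozyme of intestinal and airway epithelium, stood at 3089 in that array and at 257 to 403 in the other flight arrays (difference 3.59, 12-fold, SE 0.23; limma adjusted p = 7.62e-05). The surfactant proteins Sftpa1 and Sftpb differed by 2.84 and 2.18, and Sftpd by 1.17. Cldn18, a tight junction claudin of alveoli, differed by 2.50, the mucin Muc1 by 1.79, Ager, the receptor that marks alveolar type I cells, by 1.21, and Cyp2f2, a cytochrome P450 of club cells, by 0.80. Members that did not pass include Nkx2-1, the transcription factor of lung identity, at 0.41, and Hopx at 0.08. For Sftpa1, the 3 other flight arrays had 287 to 401 and the unflown arrays 210 to 261, while the osteoinductive microgravity array had 2056. Cbr2, a carbonyl reductase abundant in lung, had 1288 there against 195 to 266 in the other flight arrays and differed by 2.72.

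Of 14 other epithelial genes 3 rose in osteoinductive medium, against 0.568% of all genes, the keratins Krt19 (2.47), Krt7 (1.72) and Krt8 (0.92), with a list median of 0.35. Krt19, and Erg, Esam and Kdr of the next list, passed the filter on dim genes only through the osteoinductive microgravity array. Of 19 angiogenic and endothelial genes 5 rose, with a median of 0.33: the adhesion molecules Pecam1 (1.22) and Cdh5 (1.02), the VEGF receptor Kdr (1.03), the receptor partner Ramp2 (1.21) and Egfl7 (0.87). Vwf, von Willebrand factor, differed by 0.22 and did not pass. Lyve1, a hyaluronan receptor of lymphatic endothelium, had 416 in the osteoinductive microgravity array, 120 on its centrifuge partner and 192 and 144 in growth medium, a difference of 1.79 (SE 0.15; limma adjusted p = 0.000528). Without the osteoinductive microgravity array the mean of Lyve1 would lie under the filter on dim genes. The 13 endothelial markers summed to 4325 in that array and to 2620 to 2941 in the other flight arrays, against 1912.5 to 2011 without flight. The 13 markers of macrophages and other blood cells summed to 2653.5 there and to 1905 to 2046 in the other flight arrays; Lyz2, a lysozyme of macrophages and alveolar cells, differed by 2.02 and was the 1 member of 12 tested to pass, while Cd68 (0.16), Csf1r (0.11) and C1qb (-0.11) did not. The part of the markers of lung, endothelium and blood in the other differences of this pair was not tested.

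Eln, elastin, had an intensity of 3726 in the osteoinductive microgravity array, 785 on its centrifuge partner, 1140 and 922 in growth medium, and 353 to 401 without flight. Its difference was 2.25, or 4.74-fold (SE 0.12; limma adjusted p = 2.9e-05). Ccdc80, a matrix protein, differed by 1.68. These 2 were the only ones of 20 tested matricellular proteins and proteoglycans to pass in that medium, against 0.568% of all genes higher. Of 27 collagen and collagen processing genes and of 19 matrix proteases and inhibitors 0 passed, which is near the 0.591% of all genes that passed there. Acta2 and Tagln, the smooth muscle actin and transgelin of contractile cells, differed by 0.68 and 1.00 (adjusted p = 0.0491 and 0.0372). They were the 2 that passed among 31 genes of the actin cytoskeleton, against the same 0.568% of all genes higher. Acta2 had 1867 against 1166 in osteoinductive medium and 1587 against 2034 in growth medium, far under the 4863 to 5508 of the arrays that did not fly. Serping1, the inhibitor of complement C1, differed by 1.63, Epas1, a hypoxia-inducible factor of endothelium and lung, by 1.46, the integrin Itga8 by 0.72, and the imprinted gene Peg3 by 0.98. The 3 genes that fell were Cox6b1, Cox20, an assembly factor of cytochrome c oxidase (294 against 512; -0.80, adjusted p = 0.0181), and the endothelial adhesion molecule Madcam1 (114 against 214; -0.90, adjusted p = 0.0472). Without the osteoinductive centrifuge array the mean of Madcam1 would lie under the filter on dim genes. Of the 78 genes, 74, with Madcam1 and Acta2 not among them, passed under every one of 6 processing settings in which they were tested. These leave out the run without a filter on dim genes, under which 55 of the 78 passed and Acta2, Tagln and Bmp5 were among those that did not; Lyz1 and Lyz2 are close paralogs, so their split is uncertain.

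In growth medium the genes with the highest rises had other functions. H2bc14 and H4c3, replication-dependent histones, had intensities of 1379 and 708 in microgravity and 431 and 292 on the centrifuge, with differences of 1.68 (SE 0.19) and 1.28 (SE 0.14; limma adjusted p = 0.0202 for both). In osteoinductive medium they had 415 and 269 against 402 and 324, and without flight 632 to 869 and 425 to 533. The growth microgravity array was thus above the unflown range of these histones and the 3 other flight arrays were under it. Histone genes have near-identical copies, so which copy was read is uncertain. Fst, follistatin, an extracellular inhibitor of activins and BMPs, stood at 1275 against 425 in growth medium (1.58, 3-fold, SE 0.25; adjusted p = 0.0369) and at 587 against 665 in osteoinductive medium. Dlx5, a homeobox transcription factor of osteoblasts, had 565 against 250 (1.18, SE 0.14; adjusted p = 0.0282), then 261 against 286, and 140 to 206 without flight. Sox2, a transcription factor of stem and neural progenitor cells, had 598 against 280, and Stc1, the secreted hormone stanniocalcin, had 256 against 139. Camta1, Tns1 and Baiap2l1 were also among the 12, but their other probe sets differed by 0.01 to 0.41, -0.12 to 0.30 and 0.29 to 0.44 where the ones used differed by 1.49, 1.16 and 1.10.

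Of those that fell in growth medium, Plac8 had 251 against 537 (-1.09, SE 0.12; limma adjusted p = 0.0202), 165 against 174 in osteoinductive medium and 519.6 to 685.5 without flight. Gstp1, a glutathione transferase, had 1515 against 3084 (-1.03; adjusted p = 0.0369), Plscr2, a phospholipid scramblase, 170 against 339, and Ndufs5, a subunit of respiratory complex I, 277 against 527. The small nucleolar RNA gene Snord104 had 385 against 785 (-1.03; adjusted p = 0.0202). Of the 1143 calls in growth medium 29 held under every one of the same 6 settings in which they were tested, 20 higher and 9 lower, while without a filter on dim genes none passed. H2bc14, H4c3, Fst, Dlx5, Stc1, Cops6, Camta1 and Mir680-2 were among those higher, and Plac8, Plscr2, Ndufs5, Trim30d and Snord104 among those lower.

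The difference between media was tested for each gene. It passed for 7 of the 18 lung genes, against 0.25% of all genes, among them Sftpc (3.01, SE 0.18; limma adjusted p = 0.000365), and for Eln (1.94), Krt19 (2.22) and Lyve1 (1.38). Slc34a2 and Muc1 of the 7, and also Krt19 and Lyve1, passed the filter on dim genes only through the osteoinductive microgravity array. Dlx5 (-1.31, SE 0.20; adjusted p = 0.0459) and H4c3 (-1.55, SE 0.20; adjusted p = 0.0145) were the 2 for which the higher difference lay in growth medium. Anxa3, an annexin, changed order between media: it had 594 against 935 in growth medium and 675 against 438 in osteoinductive medium, and the difference between these differences was 1.28 (SE 0.18; adjusted p = 0.0242). The small nucleolar RNA genes Snora75 (523 against 824, then 465 against 291) and Snord53 (349 against 637, then 466 against 319) did the same. For these 3 genes the osteoinductive centrifuge array was the lowest of all 8, and the growth microgravity array was under both unflown growth arrays. Gsta4, Gyg and Mir19b-1 had the same signs, and their difference between media did not pass.

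Interferon-stimulated genes, the antiviral effectors that interferon induces, had the lowest list median in growth medium as deposited. Of 29 tested members 18 fell and none rose, against 7.6% of all genes lower, with a median of -0.50 beside -0.11 for all genes. In osteoinductive medium none passed and the median was -0.11. In the brightest of the 5 groups of genes by level, whose median was -0.33, lie 5 of the 29. The calls depended on the scaling, since 3 members fell after quantile and 0 after loess normalization, with list medians of -0.37 and -0.34; the small RNA list described further on then lay lower, at -0.40 and -0.37. Ifit3, an antiviral RNA-binding protein, had 1028 in microgravity and 1880 on the centrifuge in growth medium, against 1382 and 1783 without flight (-0.87, SE 0.17; limma adjusted p = 0.0369; after loess -0.63, adjusted p = 0.0909). In osteoinductive medium it had 168 against 181, and 572 and 614 without flight. Bst2, the membrane protein tetherin that holds virions at the cell surface, had 1424 against 2525 (-0.83; adjusted p = 0.0369) and then 715 against 817. Both flight arrays in osteoinductive medium were thus under the unflown osteoinductive arrays for these genes, whatever the gravity. Usp18, a protease that removes ISG15, fell by 0.76, Ifit2 by 0.64, Ifit1 by 0.61, and Stat2 and Irf9, subunits of the factor that transmits the interferon signal, by 0.59 and 0.50. Psmb9 (0.26) and Oasl1 (0.05) were the members that were higher. The stromal markers summed to 26347 in the growth microgravity array and 30199 on its centrifuge partner, and their part in this difference was not tested.

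Promoters of interferon-induced genes often hold the interferon-stimulated response element. Its core, GAAA, 2 bases of any kind and GAAA, was searched on both strands in 32851 RefSeq promoters (GRCm38.p6), each from 250 bases before to 50 after a start, and 3.44% held it. Promoters were listed for 23 of the 29 members and 11 held the motif. A member was counted if any of its listed promoters held it, while the 3.44% is a share of single promoters. Of the 14 members with a promoter that fell in growth medium 11 held it, and of the 9 others 0 did. That split rests on the calls as deposited, which depended on the scaling. The list was chosen for genes that interferon induces, so a share above 3.44% follows in part from the choice. A match is a description of the letters and not of binding. The 250 bases before the start are shown for 3 members that fell, to show where the element lies; capitals mark the motif or its reverse complement, and lines read in the direction of the gene. In Ifit3 (chr19:34583279-34583528, +) matches began 156 and 122 bases before the start, in Ifit1 (chr19:34640639-34640888, +) 104 and 85 before it, and in Bst2 (chr8:71537473-71537722, -) 130 and 124 before it, where they overlap.
Ifit3: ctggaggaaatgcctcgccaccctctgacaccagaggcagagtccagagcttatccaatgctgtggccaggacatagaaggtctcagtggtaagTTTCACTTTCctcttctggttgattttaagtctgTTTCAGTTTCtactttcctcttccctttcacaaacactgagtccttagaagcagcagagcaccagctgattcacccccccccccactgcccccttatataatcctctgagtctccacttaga
Ifit1: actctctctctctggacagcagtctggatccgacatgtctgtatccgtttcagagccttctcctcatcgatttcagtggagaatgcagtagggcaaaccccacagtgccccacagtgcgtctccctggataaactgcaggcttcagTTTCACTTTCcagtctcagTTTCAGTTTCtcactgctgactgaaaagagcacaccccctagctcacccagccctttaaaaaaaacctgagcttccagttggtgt
Bst2: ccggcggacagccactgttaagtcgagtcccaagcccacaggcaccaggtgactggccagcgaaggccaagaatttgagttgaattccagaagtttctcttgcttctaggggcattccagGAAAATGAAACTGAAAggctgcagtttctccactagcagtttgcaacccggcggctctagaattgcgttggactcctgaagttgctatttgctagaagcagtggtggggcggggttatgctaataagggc

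Of 19 cytokines and chemokines 6 fell in growth medium, against 7.6% of all genes, with a median of -0.19; the monocyte attractant Ccl2 had 528 against 962 (-0.87; limma adjusted p = 0.0369; after loess -0.65, adjusted p = 0.0714), and Cxcl10, an interferon-induced chemokine, 764 against 1308 (-0.78; adjusted p = 0.0447). Of 23 genes of the Toll-like receptor and NF-kappaB pathway 5 fell, with a median of -0.27, among them the adaptor Myd88 (-0.72) and the inhibitor Nfkbia (-0.61). After quantile normalization 2 and 1 members of these lists fell, and after loess 0 of either. No member of either list passed in osteoinductive medium, where Ccl2 differed by 0.17 and Cxcl10 by -0.29.

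Genes of protein synthesis and respiration were lower in both media without most of them passing. Of 35 ribosomal protein genes 30 were lower in both media, beside 30.4% of all genes, and 12 by at least 0.25 in both, beside 2.73%. In growth medium 7 fell, against 7.6% of all genes, and none in the osteoinductive pair, with medians of -0.36 and -0.22. As 30 of the 35 lie in the brightest of the 5 groups by level, their medians compare with -0.33 and -0.02 for that group. After loess the medians were -0.10 and -0.13, and 20 were lower in both media. Rpl13 had 2227 and 2130 in microgravity and 3048 and 2996 on the centrifuge, and Rps29 had 1241 and 1134 against 1820 and 1530. Of 68 genes of the respiratory chain and ATP synthase 51 were lower in both media and 13 by at least 0.25, beside the same 30.4% and 2.73%. In growth medium 10 fell, against 7.6% of all genes, and Cox6b1 alone fell in osteoinductive medium, against 0.0227%. Their medians were -0.35 and -0.16 (-0.14 and -0.14 after loess). As 37 of the 68 lie in the brightest group, these too compare with its -0.33 and -0.02. For respiratory genes the difference between ground units and dishes had medians of -0.16 and -0.04, so in growth medium the list was also lower between the arrays that did not fly.

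Stress lists are read against 7.6% of all genes lower in growth medium and, for lists of bright genes, against the median of -0.33 of the brightest group, which held 30 of 33 genes of the unfolded protein response, 23 of 29 NRF2 targets and 23 of 34 lysosomal genes. Of the 33 genes of the unfolded protein response and ER export 9 fell there and 0 in osteoinductive medium, with medians of -0.39 and -0.06. The transcription factor Atf6 (-0.61), the pseudokinase Trib3 (-0.61) and the chaperone partner Creld2 (-0.73) were among those that fell, while the chaperone Hspa5 differed by -0.27. Of 29 NRF2 antioxidant targets 10 fell, with medians of -0.36 and -0.15, among them the glutathione synthesis subunit Gclm (-0.66) and the peroxiredoxin Prdx1 (-0.68). Of 24 p53 targets 5 fell (medians -0.35 and -0.08), of 34 lysosomal and autophagy genes 4 (-0.35 and -0.09) and of 27 immediate early genes 7 (-0.39 and -0.05), the last with Atf3 at -0.63, Myc at -0.58 and Fos, which did not pass, at -0.40. Of 33 small nucleolar and other small RNA genes 13 fell and 2 rose, with medians of -0.44 and 0.00. After loess the growth medians were -0.13 for the unfolded protein response, of which then 0 members passed, as of the NRF2, p53, lysosomal and immediate early lists, and -0.37 for the small RNAs, of which 1 rose and 1 fell.

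**Figure D4:**
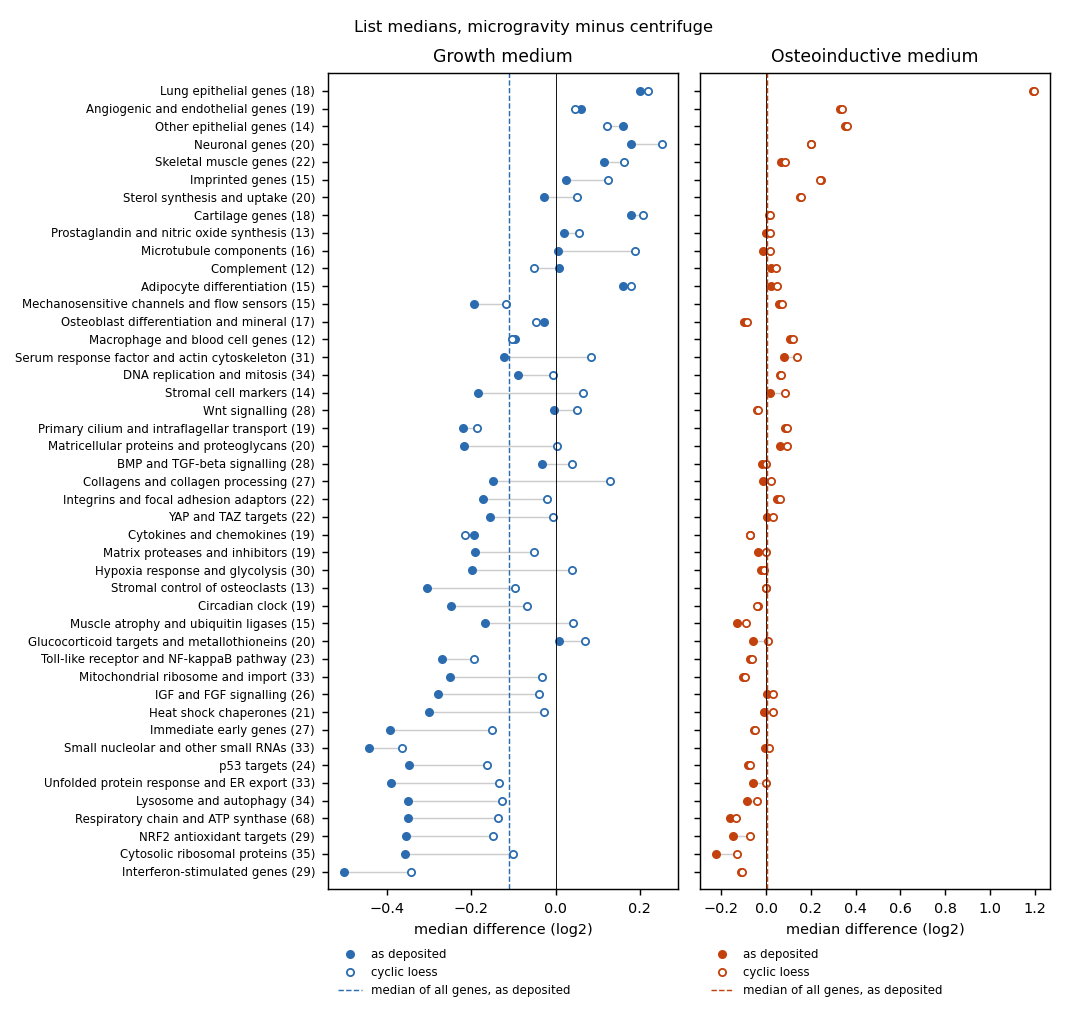
Median difference (log2) of the gene lists, with the number of tested genes in brackets, in growth (left) and osteoinductive medium (right), as deposited (filled) and after cyclic loess normalization (open); the dashed line is the median of all genes. The lung list stands out in osteoinductive medium at 1.19, the interferon list is lowest in growth medium as deposited, at -0.50, and at -0.34 after loess, where the small RNA list is lower at -0.37, and most other low growth medians move towards 0.

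Counts for the gene groups through which cells are thought to sense load are read against 7.6% of all genes lower and 1.05% higher in growth medium. Of 15 mechanosensitive channels and flow sensors 1 fell in growth medium, Piezo1, the stretch-activated cation channel, which had 1196 against 1847 (-0.63; limma adjusted p = 0.0369; after loess -0.35, adjusted p = 0.139) and 1460 against 1652 in osteoinductive medium. No channel differed by 0.25 or more in the same direction in both media, and Piezo2 (0.18 and 0.64) and Trpv4 (0.25 and -0.11) did not pass. Of 19 genes of the primary cilium 1 fell in growth medium, Ift80 (-0.59), and the medians were -0.22 and 0.09. Of 22 targets of YAP and TAZ, the coactivators that respond to tension, 3 fell in growth medium, Axl (-0.57), Tead1 (-0.53) and F3 (-0.72), and none in osteoinductive medium; Ccn2 differed by 0.46 and -0.24 and Ankrd1 by -0.40 and 0.03. Of 31 actin cytoskeleton genes 2 fell in growth medium, Cnn2 (-0.57) and Flnc (-0.58), and Actb, cytoplasmic actin, differed by -0.13 and 0.00. Of 22 integrin and focal adhesion genes 2 fell in growth medium, Itga6 (-0.53) and Itgb8 (-0.61), and Tns1 rose there.

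Bone and matrix genes gave the following counts in growth medium, against 7.6% of all genes lower; none of the falls held after loess. Of 17 tested genes of osteoblast differentiation and mineral, 1 rose (Dlx5) and 3 fell in growth medium, the mineral inhibitor Mgp (1986 against 3181; -0.68), the secreted peptide Ostn (-0.74) and the mucin-type glycoprotein Pdpn (-0.62). None passed in osteoinductive medium, and the medians were -0.03 and -0.10. Alpl, alkaline phosphatase, had 244 and 225 in microgravity and 221 and 230 on the centrifuge, and Ibsp, bone sialoprotein, had 382 and 255 against 280 and 199, above the 67.2 to 92.3 of arrays that did not fly. Of the 17, Ibsp passed the filter on dim genes only through the osteoinductive microgravity array. With an SE of the single-medium difference of 0.12 to 0.36 over all genes (median 0.13), differences of the size of those of Alpl (0.14 and -0.03) were not detectable. Of 27 collagen and collagen processing genes 1 fell in growth medium, Col8a1 (-0.57), and of 19 matrix proteases and inhibitors 4 fell, Mmp11 (-0.70), Timp1 (-0.68), Timp3 (-0.60) and the plasminogen activator Plau (-0.54).

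Among signals that stromal cells send, 5 of 13 genes of osteoclast control fell in growth medium, against 7.6% of all genes, but 1 after quantile and 0 after loess normalization: the macrophage factor Csf1 (-0.50) and Il34, which binds the same receptor (-0.65), Lif (-0.54), Ccl2 and Sema3a (-0.53). Tnfsf11, which encodes RANKL, differed by 0.36 and -0.27, and its decoy receptor Tnfrsf11b by 0.04 and -0.02, and neither passed. Of 28 genes of BMP and TGF-beta signalling 2 rose in growth medium (Bmp5, Fst) and 1 in osteoinductive medium (Bmp5); Bmp2 differed by -0.54 and -0.22. None of 28 Wnt genes passed in either medium, with medians of 0.00 and -0.04. Of 26 IGF and FGF genes Igfbp3, the main carrier of IGF in blood, rose in growth medium (432 against 268; 0.69) and 5 fell, among them Fgf7 (-0.65) and Pdgfc (-0.65). Of 34 genes of replication and mitosis the kinase Plk1 (0.76) and Ccnb2 (0.54) rose and Pcna (-0.70) fell in growth medium; Plk1 had 323 and 234 against 191 and 189, under the 508 to 685 without flight.

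Neuronal genes, which both flight conditions carried, were higher in both media for 14 of 20 tested members and lower in both for 0, beside 18.2% and 30.4% of all genes. Of the 20, Gria2 and Nrsn1 passed the filter on dim genes only through the osteoinductive microgravity array. The medians were 0.18 and 0.20, and Nrsn1 alone passed; Snap25, a synaptic fusion protein, had 464 and 251 against 319 and 253, and Stmn2 differed by 0.05 and 0.07. Skeletal muscle genes were higher in both media for 14 of 22, with medians of 0.11 and 0.07 and none past the threshold. Of 15 imprinted genes Mest rose in both media and Peg3 in osteoinductive medium, while Igf2r fell in growth medium (-0.67); Ndn had 1810 and 1140 against 1487 and 664, and 50.8 to 89.2 without flight, and did not pass. Cartilage (median 0.18 and 0.01) and fat cell genes (0.16 and 0.02) had no member past the threshold.

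**Figure D5:**
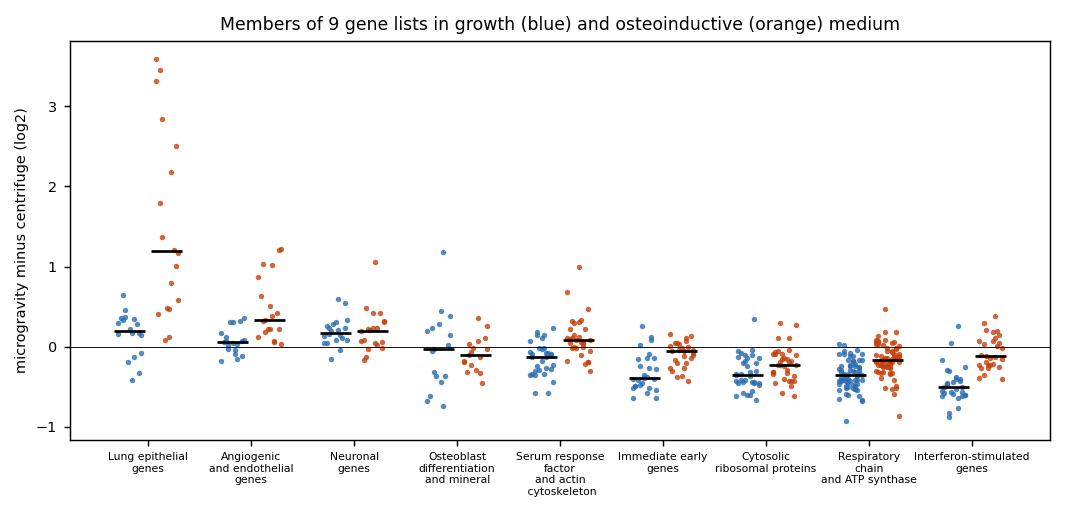
Difference between microgravity and centrifuge (log2) of each tested member of 9 lists, in growth (blue) and osteoinductive medium (orange), with the list median as a bar. Lung members reach 3.59 in osteoinductive medium and 0.65 in growth medium, interferon members have medians of -0.50 and -0.11, and ribosomal and respiratory members lie mostly under 0 in both.

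Against 7.6% of all genes lower in growth medium, of 20 genes of sterol synthesis and uptake 2 fell in growth medium, Msmo1 (-0.47) and Sc5d (-0.56), and the osteoinductive median was 0.15. Of 19 clock genes Nfil3 (-0.61) and Ciart (-0.60) fell in growth medium, with medians of -0.25 and -0.03. Of 21 heat shock chaperones Hspa9 (-0.47) and Hspb8 (-0.59) fell and the small heat shock protein Hspb1 rose in growth medium (271 against 184; 0.56, limma adjusted p = 0.0377) and had 221 against 167 in osteoinductive medium, a difference of 0.41 that did not pass.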

How the data were processed

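Biotin-labelled RNA of 8 samples was hybridised to 1 oligonucleotide array each. The authors deposited linear intensities, 1 for each probe set. RMA and GCRMA are both named, per the submitters' processing notes, without saying which applies, and no genome build was given in the sources used here. Array medians lay between 180.9 and 196.4, so values were used as deposited after log2. Samples were grouped by title. Of 35557 probe sets 21789 had 1 gene, 1621 several and 12147 were unnamed in the annotation used; 21698 of the former matched RefSeq (GRCm38.p6, used for names and sequences). The probe set with the highest mean stood for a gene, and a gene was tested where its mean lay above the 40th percentile over probe sets (log2 7.14, intensity 141).

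Limma 3.58.1 in R 4.3.3 (lmFit, eBayes, Benjamini-Hochberg, two-sided, threshold 0.05) was run on all 8 arrays: over both media with condition and medium as terms (3 residual degrees of freedom), and within media with 6 group means, in which the ground unit and dish arrays of a medium form a group (2 residual degrees of freedom). Those 2 differ in hardware, which enters the spread. The script was tested on simulated data.

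Named genes are the 12 highest and 12 lowest with the same sign in both media, ranked by the smaller difference; the 12 highest and lowest in each medium; 6 of each opposite order; and members of 46 lists. Predicted genes were not named. Members and lists were chosen with earlier results of these data known. Lists carry counts and medians and no test. The result of 1 list is not reported here. Alternatives were quantile and cyclic loess normalization, no filter, a 60th percentile filter, 32 added before log2, the mean of probe sets, a variance trend, 4 arrays alone, no term for medium, and each array left out.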

Additional observations from a re-analysis of the deposited data

Results flagged for a closer look

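For 17 named genes the difference between microgravity and the centrifuge differed between osteoinductive and growth medium by limma's interaction test, with 1 flight array for each medium and condition. The values are the osteoinductive difference minus the growth difference on the log2 scale, and 15 of them are positive. For genes of the lung list they were 3.43 for Lyz1, 3.01 for Sftpc, 2.80 for Slc34a2, 2.47 for Sftpa1, 2.32 for Cldn18, 1.84 for Sftpb and 1.45 for Muc1. For genes of other epithelium, matrix, macrophages and lymphatic endothelium they were 2.22 for Krt19, 1.94 for Eln, 2.10 for Lyz2 and 1.38 for Lyve1, and Cbr2 had 2.56. For genes with opposite signs in the media they were 1.28 for Anxa3, 1.33 for Snora75 and 1.42 for Snord53. Dlx5 had -1.31 and the histone gene H4c3 -1.55. Lyve1 and Dlx5 lay nearest to the threshold, with adjusted p = 0.0496 and 0.0459. Slc34a2, Muc1, Krt19 and Lyve1 passed the filter on dim genes only through the osteoinductive microgravity array.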

How the results depend on the processing

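Over both media the count of 0 genes stayed 0 after quantile or loess normalization, with either other filter, with 32 added, with the mean of probe sets, with a variance trend and with no term for medium; it was 49 with the 4 flight arrays alone and 0 to 47 with single arrays left out. The 1143 calls in growth medium became 500 after quantile normalization, 0 without a filter on dim genes, 1852 with the stricter filter and 33 after cyclic loess, an alternative chosen after seeing the data; with a ground or dish array left out they were 1452 to 2590. The 78 calls in osteoinductive medium became 37 with the stricter filter, which tested fewer genes, and 100 to 182 with an array left out. The 33 interaction calls became 63 after quantile normalization and 76 to 431 with an array left out. The 203 genes higher by at least 0.25 in both media became 510 without a filter and 74 with the stricter one, and the 361 lower became 172 after loess. Apart from the filters the cause was not tested. Single-medium values without a flight array of that medium could not be fitted. Among named genes no direction reversed for a called value, and 458 values lost their call under a setting.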
